A study of Xenopus tropicalis with 132 samples.

Results

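Animal caps given mRNA of both Irx3 and Otx2 were compared with caps of the group named WI, across all genes. The comparison rested on 4 bulk RNA-seq libraries chosen by their sample titles: Irx3+Otx2 replicates 1 and 2 and WI replicates 1 and 2, out of 16 bulk RNA-seq libraries of caps and 132 samples in the whole series. All came from Xenopus tropicalis, a frog, at gastrula stage 10.5. The Irx3+Otx2 caps overexpressed the 2 mRNAs together, and both libraries carried the same pair. The WI caps are named with none of the tested mRNAs, and the labels do not spell out WI, give no dose, no count of caps per library and no clutch. Caps given Irx3 mRNA alone or Otx2 mRNA alone, 2 libraries each, are set beside the pair and, with the other bulk libraries, entered the fit that estimates the spread behind each call. Nothing in the labels says that replicates came from separate clutches, so p-values measure the spread between these libraries, which may be technical.

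The animal cap is the roof of the amphibian blastula. Left alone it becomes epidermis under bone morphogenetic protein (BMP) signalling, and when BMP is blocked, as by the antagonists that the dorsal organizer secretes, it turns to neural tissue; other inducers turn it to mesoderm or endoderm. Irx3 is an Iroquois homeobox factor of the early neural plate, active behind the forebrain, and Otx2 is a homeobox factor of the anterior neural plate, the head organizer and the cement gland.

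Each library value below is in CPM, the count scaled to a common library size, after TMM scaling, which corrects for library size and composition, and each change is a log2 difference, Irx3+Otx2 minus WI. The total estimated counts were 4058814 and 4932230 in WI 1 and WI 2 and 9218401 and 5527819 in Irx3+Otx2 1 and 2. The TMM factors were 0.886 and 0.983 in WI 1 and 2. In Irx3+Otx2 1 and 2 they were 0.794 and 1.25, the lowest and the highest of the 16 bulk libraries. Which library of the pair is higher for a gene, or whether the 2 are close, can depend on this scaling. Spearman's rho across genes was 0.945 between the WI libraries, 0.930 between the Irx3+Otx2 libraries and 0.881 to 0.929 between the groups. Serial numbers in the deposited names go from 1 to 16 without a gap. They were cut here into 3 runs: 1 to 6, 7 to 11 and 12 to 16. WI 1 and Irx3+Otx2 1 fell in the first, WI 2 in the second and Irx3+Otx2 2 in the third, which held no WI library. The Irx3 libraries fell in the first and second and both Otx2 libraries in the third. The names themselves mark no runs, and whether these are batches is not stated. A value within 1 run exists only for Irx3+Otx2 1 against WI 1. The WI caps carried the genes of ectoderm, such as tfap2c at 1919 and 1052 CPM, grhl3 at 1238 and 526 and epcam at 2072 and 1611. Defining genes of other germ layers were low there, with t (brachyury, of mesoderm) at 19.2 and 6.82 CPM and mixer (of endoderm) at 1.39 and 0.620.

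The mRNAs themselves were read first, since they check the labels. irx3 stood at 1.67 and 5.37 CPM in WI 1 and 2 and at 1618 and 1363 in Irx3+Otx2 1 and 2. otx2 stood at 31.8 and 34.3 CPM in WI and 829 and 1548 in Irx3+Otx2. Both were far higher in both Irx3+Otx2 libraries, in CPM irx3 at like levels in the 2 libraries and otx2 more abundant in the second. On the length-corrected TPM scale the means were 1.60 and 894 for irx3 and 11.9 and 672 for otx2. In Irx3+Otx2 1 and 2 irx3 was at 614 and 1173 TPM and otx2 at 256 and 1088, so on that scale both were higher in the second. irx3 was called with a log2 change of 8.68 (SE 1.098, edgeR adjusted p 0.011). The change of otx2, 5.17 (SE 1.26), did not pass edgeR's test (adjusted p 0.162) and did pass that of DESeq2 (adjusted p 0.00215). Reads from injected mRNA and from the embryo's own gene cannot be told apart in these counts.

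Irx3+Otx2 caps held more transcript of an organizer BMP antagonist (chrd), of 2 homeobox genes of the brain and sensory neurons (dmbx1 and tlx3) and of others such as sox17a and apoc1-like, and less of the ectodermal gene foxi4.2, the BMP-induced gene ventx2.1, the Notch ligand dlc and foxf1. edgeR's quasi-likelihood test with Benjamini-Hochberg adjustment over 14176 genes called 18 genes (0.127%) at an adjusted p under 0.05, of which 12 rose (0.0847%) and 6 fell (0.0423%). The 12 include irx3, whose mRNA these caps were given. An unadjusted p under 0.05 was reached by 1818 genes, 944 higher and 874 lower. DESeq2 called 275 of the 14061 genes it tested among these (1.96%), 132 higher (0.939%) and 143 lower (1.02%), and these held all 18. In all 18 the 2 Irx3+Otx2 libraries lay wholly above or wholly below the 2 WI libraries; of all genes tested 2905 lay above (20.5%) and 2944 below (20.8%), and with a log2 change of at least 1 in size 1296 (9.14%) and 1203 (8.49%). These counts, and those of list members above or below WI, depend on the TMM factors: with CPM scaled by total count alone 2675 genes lay above and 2097 below, and with upper quartile scaling 2743 and 2986. In bulk RNA, fewer cells of a type and less RNA per cell cannot be told apart.

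The count of 18 leaned on each library. It was 7 without Irx3+Otx2 1, 6 without Irx3+Otx2 2, and 0 without WI 1 or without WI 2, fits in which the lone library of a group is assumed to vary like the other groups. At an unadjusted p under 0.05 those last 2 fits held 866 and 1937 genes. With the serial runs as a term it was 7, all higher, which kept apoc1-like, cebpb, chrd, dmbx1 and sox17a of the 18. The direction of all 18 was the same in every one of these fits. A call is therefore a statement on these 4 libraries together with the spread in the other 12, and the values per library are given for each gene.

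**Figure D1:**
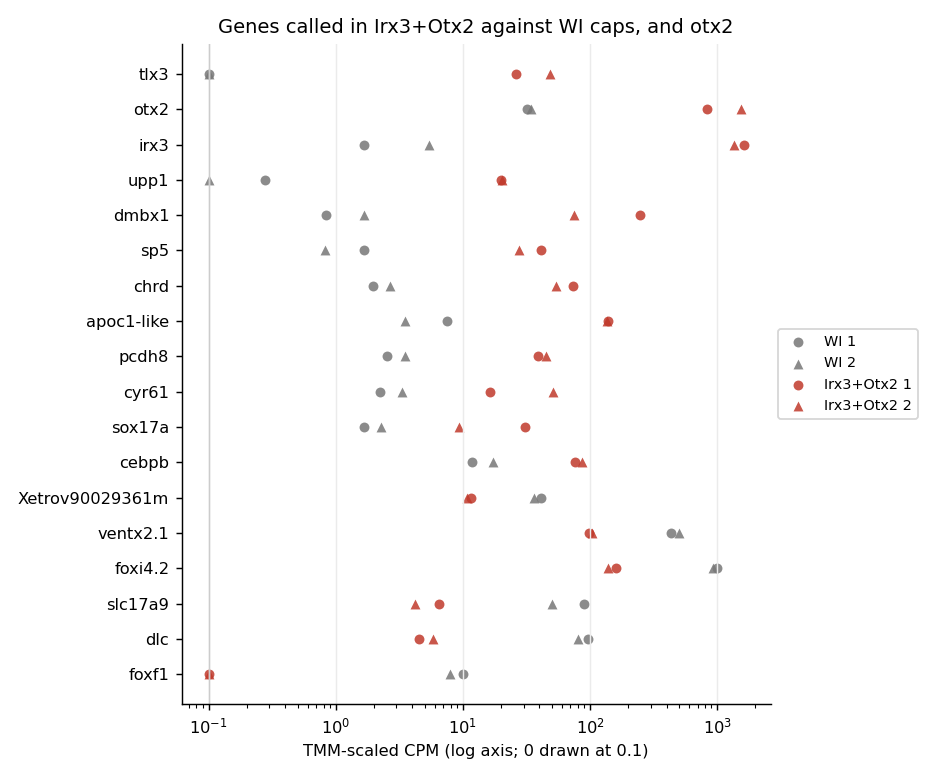
TMM-scaled CPM on a log axis in the 2 WI (grey) and 2 Irx3+Otx2 (red) libraries for 17 of the 18 genes called by edgeR and for otx2, with circles for replicate 1 and triangles for replicate 2; a value of 0 is drawn at 0.1. In every gene both red points lie on 1 side of both grey points, from irx3 at 1.67 and 5.37 against 1618 and 1363 CPM to foxf1 at 10.0 and 7.85 against 0.

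**Figure D2:**
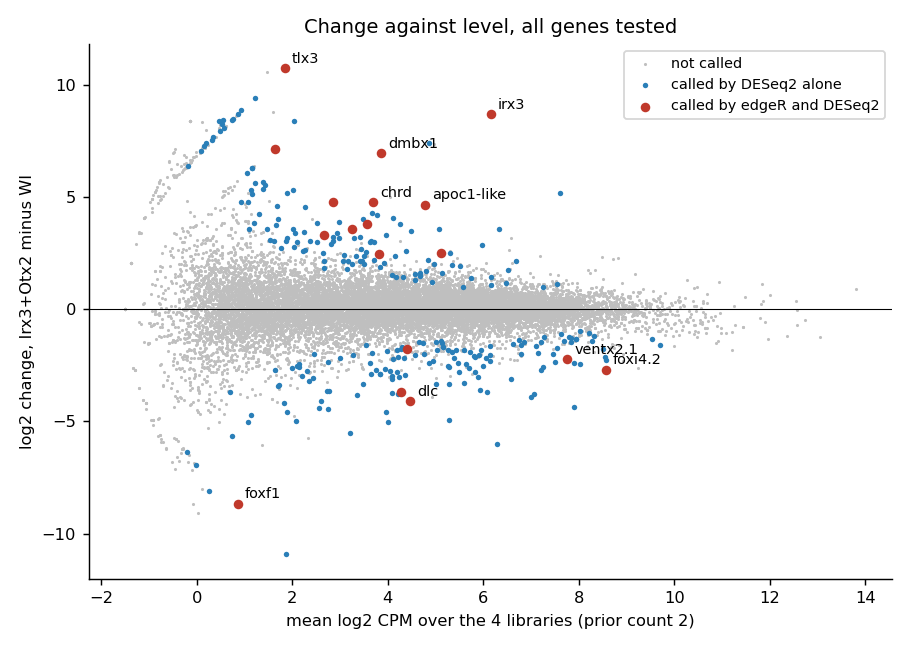
Log2 change (Irx3+Otx2 minus WI) against mean log2 CPM of the 4 libraries for the 14176 genes tested, with the 18 edgeR calls in red and genes called by DESeq2 alone in blue. The edgeR calls reach from -8.66 for foxf1 to 10.73 for tlx3, both fitted against a group at 0 counts.

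The call with the smallest adjusted p was chrd (chordin), the organizer's secreted BMP antagonist. It stood at 1.95 and 2.68 CPM in WI and 73.8 and 53.9 in Irx3+Otx2, a log2 change of 4.76 (SE 0.52, edgeR adjusted p 0.00726). Both Irx3+Otx2 libraries were far above both WI libraries, and chrd alone passed an adjusted p under 0.01. In TPM its mean went from 0.455 to 16.5, with 12.3 and 20.6 in Irx3+Otx2 1 and 2, the reverse of their order in CPM.

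Apart from irx3, 5 of the genes that rose encode transcription factors. dmbx1, a paired-type homeobox gene of the midbrain and diencephalon, stood at 0.836 and 1.65 CPM in WI and 246 and 75.3 in Irx3+Otx2 (log2 change 6.95, SE 0.89, edgeR adjusted p 0.011). tlx3, a homeobox gene of sensory and hindbrain neurons, had no count in either WI library and 26.3 and 48.7 CPM in Irx3+Otx2. Its 527 counts against 0 make it at least 104-fold higher, taking 3 counts over the WI group as the floor (edgeR adjusted p 0.0145). The 2 homeobox genes were thus near or at 0 in WI and plainly present in both libraries of the pair, dmbx1 more so in the first and tlx3 more so in the second.

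sp5, a zinc finger gene that responds to Wnt signalling, stood at 1.67 and 0.826 CPM in WI and 41.1 and 27.6 in Irx3+Otx2 (log2 change 4.79, SE 0.76, edgeR adjusted p 0.0322). sox17a, an HMG-box gene that specifies endoderm, went from 1.67 and 2.27 to 30.7 and 9.31 CPM (log2 change 3.31, SE 0.55, edgeR adjusted p 0.0367). cebpb, a bZIP factor of myeloid, fat and liver cells, stood at 11.7 and 17.1 CPM in WI and 76.2 and 86.8 in Irx3+Otx2 (log2 change 2.49, SE 0.36, edgeR adjusted p 0.0198). In CPM the 2 Irx3+Otx2 libraries were close for cebpb and apart for sox17a, which was highest in the first. In TPM they stood at 10.8 and 28.3 for cebpb and 14.2 and 9.77 for sox17a. Without Irx3+Otx2 1 the log2 change of sox17a was 2.21 and it was not called. sox17a has near copies in the sox17b genes, among which reads could be split.

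The other genes that rose encode secreted, surface and metabolic proteins. apoc1-like, matched with its suffix dropped to apoc1 (apolipoprotein C-I, a lipid-carrier protein) in the RefSeq table, was the most abundant of these. It stood at 7.52 and 3.51 CPM in WI and 139 and 136 in Irx3+Otx2. Its log2 change was 4.66 (SE 0.58, edgeR adjusted p 0.011), and its mean TPM went from 15.1 to 510. It was among the calls also without either Irx3+Otx2 library. pcdh8, the paraxial protocadherin of organizer and paraxial mesoderm, stood at 2.51 and 3.51 CPM in WI and 39.2 and 44.9 in Irx3+Otx2 (log2 change 3.78, edgeR adjusted p 0.0347). In CPM the 2 libraries of the pair were close to each other for both genes. In TPM they were further apart, at 345 and 675 for apoc1-like and 8.24 and 21.7 for pcdh8.

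cyr61 (ccn1, a matricellular protein) stood at 2.23 and 3.304 CPM in WI and 16.3 and 50.9 in Irx3+Otx2 (log2 change 3.58, edgeR adjusted p 0.0367). upp1, uridine phosphorylase of nucleotide salvage, had 1 count in WI and 285 in Irx3+Otx2, with 19.99 and 20.2 CPM in the latter, 169 times as many per counted read (exact 95% limits from counting alone, 30.2 and 6714; edgeR adjusted p 0.0322). For both genes the libraries of the pair lay above WI, and cyr61 was the less even, higher in Irx3+Otx2 2. Without that library its log2 change was 2.54 and it was not called.

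Of the 6 genes that fell, 2 are early ectodermal transcription factors at high levels in WI. foxi4.2, a forkhead gene of the early ectoderm, stood at 995 and 931 CPM in WI and 160 and 138 in Irx3+Otx2 (log2 change -2.69, SE 0.39, edgeR adjusted p 0.022). ventx2.1, a homeobox repressor that BMP induces, stood at 436 and 502 CPM in WI and 97.9 and 103 in Irx3+Otx2 (log2 change -2.22, SE 0.35, edgeR adjusted p 0.0322). For both genes replicates lay close together in CPM in each group and the groups far apart. In TPM the libraries of the pair stood at 82.1 and 159 for foxi4.2 and 60.8 and 143 for ventx2.1, still below WI. ventx2.1 has near copies, ventx2.2 among them, so its single value is uncertain.

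foxf1, a forkhead gene of lateral and visceral mesoderm, stood at 10.0 and 7.85 CPM in WI and had no count in either Irx3+Otx2 library. Its 74 counts against 0 make it at least 41.5-fold lower, with 3 counts over the Irx3+Otx2 group as the floor (edgeR adjusted p 0.011). dlc, a Delta-type Notch ligand of ciliated-cell and neuron precursors, stood at 95.9 and 80.3 CPM in WI and 4.52 and 5.82 in Irx3+Otx2 (log2 change -4.09, SE 0.63, edgeR adjusted p 0.0322). Both were detected in each WI library and nearly or wholly missing from the pair.

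The gene listed as LOC100496923, which the RefSeq table names slc17a9 (the vesicular nucleotide transporter), went from 89.5 and 50.4 CPM in WI to 6.43 and 4.22 in Irx3+Otx2 (log2 change -3.71, SE 0.55, edgeR adjusted p 0.0235). The unnamed target Xetrov90029361m stood at 41 and 35.9 CPM in WI and 11.6 and 10.8 in Irx3+Otx2 (log2 change -1.78, edgeR adjusted p 0.0347). It had the smallest change of the 18.

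In the BMP pathway list chrd rose and ventx2.1 fell, and most other members lay below WI without an edgeR call. Of 29 members tested, edgeR called chrd higher and ventx2.1 lower, and DESeq2 called 3 higher and 9 lower. In both libraries 5 lay above WI (17.2%) and 20 below (69%). Over all genes tested the shares were 20.5% above and 20.8% below, and the counts of every list below are to be set against these. The median log2 change was -1.73, against 0.07 over all genes tested. Taken pair by pair, Irx3+Otx2 1 minus WI 1 and WI 2 and then Irx3+Otx2 2 minus WI 1 and WI 2, the medians of log2 differences were -1.69, -1.71, -1.65 and -1.31. Only the first of these values lies within a serial run, and it rests on 1 library of each group. With the serial runs as a term the list median was -1.59, and chrd was still called and ventx2.1 was not. The part of the runs in this difference was not tested.

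Among targets and feedback genes, bambi, a decoy receptor made in response to BMP, stood at 529 and 463 CPM in WI and 28.1 and 38.5 in Irx3+Otx2 (edgeR adjusted p 0.12, DESeq2 3.06e-05). szl (sizzled), which blocks the proteases that cut chordin, was at 191 and 236 and 8.49 and 5.38 CPM (edgeR adjusted p 0.127, DESeq2 6.09e-06). msx1, a homeobox target of BMP, was at 85 and 115 and 5.202 and 0.872 CPM (edgeR adjusted p 0.0917, DESeq2 2.22e-06). None of these 3 passed edgeR's threshold, though in each the groups stood far apart. gata2, a zinc finger factor of ventral ectoderm, had the lowest log2 change of the list at -6.02 (SE 1.52, edgeR adjusted p 0.165, DESeq2 0.00116), from 840 and 469 CPM in WI to 13.6 and 6.54 in the pair. ventx1.1 was at 245 and 246 CPM in WI and 24 and 14.1 in the pair.

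The ligand bmp4 stood at 180 and 122 CPM in WI and 50.8 and 39.8 in Irx3+Otx2, and bmp7.1 at 35.4 and 12.6 and 2.74 and 1.02; DESeq2 called the second (adjusted p 0.0335) and not the first (adjusted p 0.11), and edgeR neither. bmp2 pointed the other way, at 12.54 and 20.03 CPM in WI and 23.3 and 50.6 in the pair, without a call by either tool. On the antagonist side, nog (noggin) stood at 3.34 and 1.65 CPM in WI and 7.94 and 64 in Irx3+Otx2 (edgeR adjusted p 0.12, DESeq2 0.00102). fst (follistatin) stood at 1.95 and 1.45 and 8.49 and 19.5 CPM (edgeR adjusted p 0.156, DESeq2 0.0105). Both antagonists were higher in both libraries of the pair, and nog mostly in the second.

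The organizer list, which shares chrd, nog, fst and admp with the BMP list, had 15 members tested of 19 in the data. Of these 9 lay above WI in both libraries (60%) and 1 below (6.67%). edgeR called chrd alone and DESeq2 6 higher and 1 lower, and the median log2 change was 2.61. Medians by library pair, in the order above, were 1.21, 1.76, 1.92 and 1.87. lhx1, a LIM homeobox gene of the head organizer, stood at 2.23 and 3.098 CPM in WI and 11.4 and 37.4 in the pair. gsc (goosecoid) had 2 counts in WI and 82 in the pair, at 0.279 and 0.207 and 9.31 and 2.04 CPM. Both were above WI in both libraries, with gsc higher in the first and lhx1 in the second.

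Of the other organizer genes, hesx1, of the anterior neural plate and head organizer, stood at 8.92 and 12.8 CPM in WI and 65.6 and 20.9 in the pair, and dkk1, a secreted Wnt antagonist, at 0 and 0.620 and 0.821 and 3.199. Both lay above WI in both libraries without a call by either tool. not, a homeobox gene of the notochord, stood at 22.6 and 39.7 CPM in WI and 17.9 and 25.9 in the pair. shh stood at 0.557 and 0 and 0.411 and 0.291 CPM and frzb at 0.557 and 0 and 0.821 and 0.145, near 0 throughout. tsku was called lower by DESeq2 (adjusted p 0.0106), at 357 and 373 CPM in WI and 111 and 187 in the pair. The members called higher by DESeq2 were chrd, nog, fst, lhx1, foxa2 and foxa4, and gsc missed its threshold (adjusted p 0.0511).

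The non-neural ectoderm list, the genes of future epidermis, had no member above WI in both libraries. Of 22 tested, 18 lay below in both and 4 overlapped, where 20.8% of all genes lay below. edgeR called foxi4.2 and ventx2.1 lower, and DESeq2 12. The median log2 change was -1.73, with medians by library pair of -1.78, -1.55, -2.61 and -2.13. tfap2a and tfap2c, AP-2 factors that specify ectoderm, stood at 590 and 454 and at 1919 and 1052 CPM in WI, against 177 and 142 and 543 and 433 in the pair. grhl3, a grainyhead factor of the epidermal barrier, went from 1238 and 526 to 219 and 146 CPM (DESeq2 adjusted p 0.00724, edgeR 0.163).

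Further members of that list had larger changes and lower levels. gata3 stood at 32 and 10.3 CPM in WI and 0.411 and 0.872 in the pair (DESeq2 adjusted p 0.00102, edgeR 0.162). dlx5, a distal-less homeobox gene of the neural plate border, stood at 229 and 189 and 19.99 and 15 CPM (DESeq2 adjusted p 0.000656, edgeR 0.143), and dlx3 at 91.1 and 56.4 and 3.29 and 2.76. Among epithelial genes, epcam stood at 2072 and 1611 CPM in WI and 1806 and 810 in the pair, krt18 at 661 and 482 and 488 and 176, and krt8 at 790 and 784 and 277 and 198. Of these 3, the groups overlapped for epcam and krt18 and not for krt8, and none was called by either tool.

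Multiciliated cells and ionocytes are the scattered cell types of frog epidermis, set up by Notch signalling. Of 17 genes tested from their list, 12 lay below WI in both libraries (70.6%) and 2 above (11.8%), with dlc the single edgeR call and a median log2 change of -1.69. foxj1, the master regulator of motile cilia, stood at 142 and 65.5 CPM in WI and 9.86 and 10.8 in the pair (edgeR adjusted p 0.0917, DESeq2 9.87e-05). foxi1, which specifies ionocytes, stood at 34.3 and 30.8 and 2.60 and 0.291 CPM, and dll1, another Delta ligand, at 85 and 57.2 and 20.5 and 6.54. All 3 were lower in both libraries and called by DESeq2 alone. rfx3 and foxa1 lay above WI, with foxa1 at 0.557 and 1.03 CPM in WI and 5.89 and 8.43 in the pair.

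Markers of the neural plate as a whole did not lie on 1 side of WI. Of 21 pan-neural genes tested, 6 lay above WI (28.6%), 4 below (19%) and 11 overlapped, near the shares over all genes. edgeR called none, with 4 at an unadjusted p under 0.05, and DESeq2 called 1 (foxd4l1.1). The median log2 change was 0.59, but by library pair it was 1.02, 0.66, 0.35 and -0.47, and without Irx3+Otx2 1 it was -0.40. sox2, the neural progenitor factor, stood at 176 and 283 CPM in WI and 574 and 302 in the pair, and sox3 at 368 and 653 and 510 and 470; neither was called by either tool. zic1 stood at 120 and 246 and 623 and 208 CPM. WI caps thus already carried these early neural genes, and Irx3+Otx2 1 held more of sox2 and zic1 than Irx3+Otx2 2.

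foxd4l1.1, a forkhead gene of the immature neural ectoderm, stood at 15 and 17.6 CPM in WI and 97.9 and 88 in the pair (DESeq2 adjusted p 0.000705, edgeR 0.0963). Reads could be split between it and its copy foxd4l1.2, which stood at 1.67 and 2.48 and 9.86 and 15.1 CPM. gmnn (geminin), which restrains neural differentiation and DNA replication, was at 195 and 171 and 843 and 397 CPM, without a call. Genes of differentiating neurons had no call: elavl3 stood at 192 and 143 CPM in WI and 61.3 and 16.7 in the pair, and neurog2 at 4.46 and 4.34 and 5.89 and 1.16.

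Regional brain genes had a wider spread than the pan-neural ones, with several near 0 in WI. Of 14 forebrain and eye genes tested, from 21 in the data, 8 lay above WI (57.1%) and 2 below (14.3%). DESeq2 called 3 higher (six3, fezf2 and emx2). edgeR called none, with 6 at an unadjusted p under 0.05, and the median log2 change was 1.002. six3, a homeobox gene of the most anterior forebrain, stood at 0.279 and 1.45 CPM in WI and 17.1 and 26.3 in the pair (DESeq2 adjusted p 0.000478, edgeR 0.0917). emx2, of the dorsal forebrain, stood at 0.836 and 1.86 and 22.7 and 17.2 CPM, and fezf2, a zinc finger gene of the forebrain, had 2 counts in WI and 181 in the pair. All 3 were well above WI in both libraries. The eye genes rax and pax6 stood at 0 and 1.65 and 0.836 and 1.03 CPM in WI and at 0.137 and 0.582 and 1.23 and 1.02 in the pair, near 0 in both groups.

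Of 17 midbrain and hindbrain genes tested, from 24 in the data, 8 lay above WI (47.1%) and 4 below (23.5%). edgeR called dmbx1, DESeq2 4 higher and 1 lower, and the median log2 change was 0.94. en2 (engrailed, of the midbrain-hindbrain boundary) had no count in WI and 492 in the pair, at 60.5 and 7.27 CPM. wnt1, the ligand made at that boundary, had 2 counts in WI and 141 in the pair, at 13.8 and 5.82 CPM. barhl2, a homeobox gene of the diencephalon, had no count in WI and 105 in the pair, at 2.46 and 12.6 CPM. These genes were present in both libraries of the pair and barely or not in WI, but at uneven levels, en2 and wnt1 higher in the first and barhl2 in the second. DESeq2 called wnt1 (adjusted p 0.0234) and barhl2 (0.011) and not en2 (0.373), and edgeR none of the 3.

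Hox genes set position along the hindbrain and trunk. hoxd1 stood at 10.0 and 28.3 CPM in WI and 1.095 and 0.291 in the pair, without a call by either tool (edgeR adjusted p 0.272, DESeq2 0.0763). hoxb6 had 1 count in WI and 640 in the pair, at 18.6 and 73.3 CPM (DESeq2 adjusted p 0.000705, edgeR 0.0917). hoxb8 had 1 count in WI and 140 in the pair, at 14.4 and 5.09 CPM. The anterior-group gene hoxd1 thus lay below WI in both libraries and the more posterior-group hoxb6 and hoxb8 above. The caudal genes cdx1, cdx2 and cdx4, which promote trunk and tail fates, were lower, cdx2 at 78 and 110 CPM in WI and 11.1 and 21.2 in the pair and cdx4 at 51.6 and 45.8 and 4.65 and 6.54, called by DESeq2 and not by edgeR.

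Over all 103 homeobox genes tested beyond irx3 and otx2, from 189 in the data, 39 lay above WI (37.9%) and 24 below (23.3%), against 20.5% and 20.8% of all genes. edgeR called dmbx1 and tlx3 higher and ventx2.1 lower, and DESeq2 called 13 higher and 12 lower. nkx6-2, of the ventral neural tube, stood at 5.57 and 4.13 CPM in WI and 137 and 23.8 in the pair (DESeq2 adjusted p 0.00842, edgeR 0.25). gsx1, of neural progenitors, stood at 0.279 and 0.620 and 14.2 and 20.8 CPM. olig3, a bHLH gene of dorsal neural progenitors and no homeobox gene, stood at 1.39 and 4.54 and 39 and 78.8 CPM (DESeq2 adjusted p 0.000801). Each of the 3 was above WI in both libraries and called by DESeq2 alone. The other Iroquois genes irx1 and irx2 stood at 64.1 and 45.6 and 102 and 76.2 CPM in WI and at 122 and 13.8 and 190 and 29.4 in the pair, with the first library above and the second below WI.

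**Figure D3:**
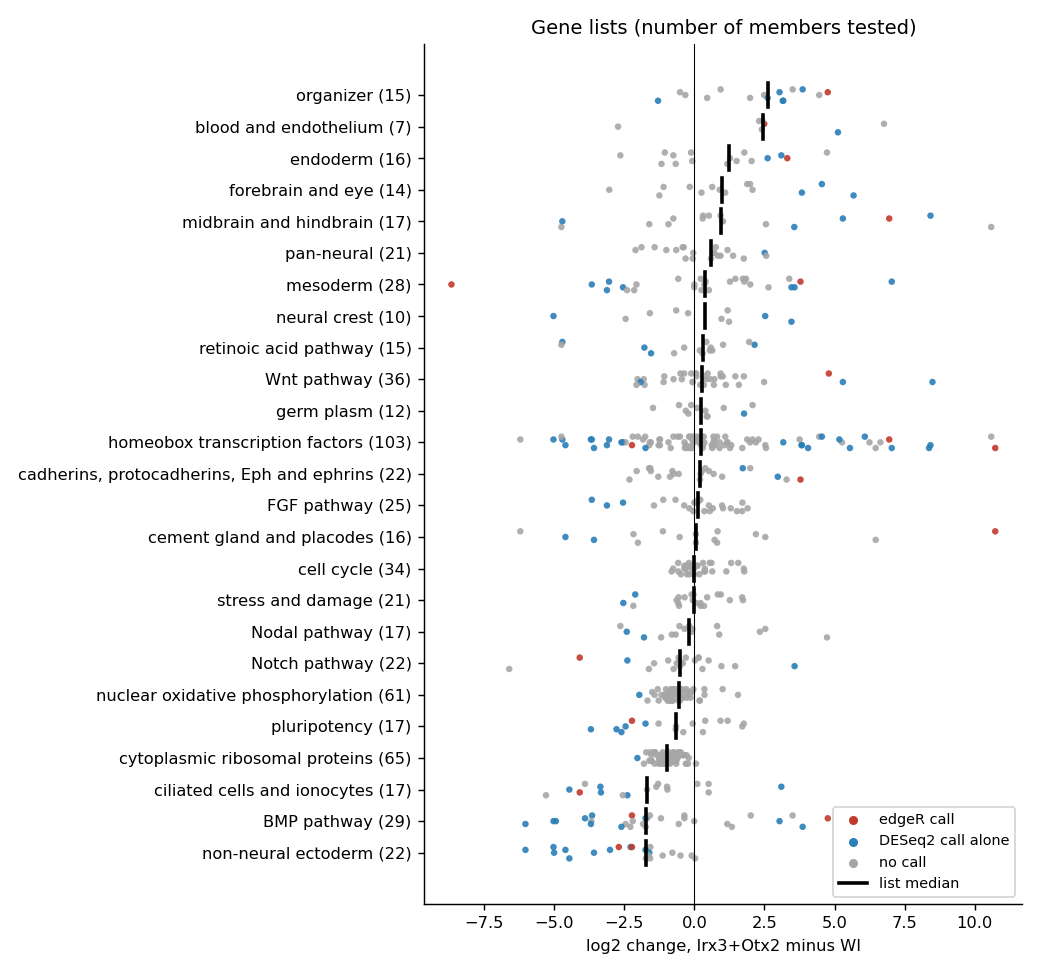
Log2 change (Irx3+Otx2 minus WI) of each tested member of 25 gene lists, with the list median as a black bar, edgeR calls in red and DESeq2 calls alone in blue; lists share some members. The organizer list has the highest median (2.61) and the non-neural ectoderm and BMP lists the lowest (-1.73 and -1.73); the median over all genes was 0.07.

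Neural crest and placode genes, which arise at the border of the neural plate, were split. Of 10 crest genes tested, 3 lay above WI (30%) and 4 below (40%). snai1, a zinc finger gene of migrating crest and mesoderm, stood at 6.69 and 7.44 CPM in WI and 118 and 38.2 in the pair (edgeR adjusted p 0.0766, DESeq2 3.72e-05), and tfap2b at 5.02 and 4.75 and 16.4 and 40.0, while the BMP-responsive members msx1, msx2 and id3 were lower. Of 16 cement gland and placode genes tested, 6 lay above and 6 below (37.5% each), with tlx3 the edgeR call. The cement gland gene ag1 stood at 126 and 103 CPM in WI and 49.3 and 56 in the pair, and was called by neither tool. pitx1, of the anterior border, stood at 0.836 and 0.620 and 3.70 and 3.05 CPM.

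Mesoderm genes lay on both sides of WI. Of 28 tested, 11 lay above WI (39.3%, against 20.5% of all genes) and 8 below (28.6%, against 20.8%). pcdh8 was the edgeR call up and foxf1 the call down, and the median log2 change was 0.38. t (brachyury), the general mesoderm factor, stood at 19.2 and 6.82 CPM in WI and 2.60 and 3.199 in the pair, without a call. evx1, a homeobox gene of posterior mesoderm, stood at 13.4 and 14.9 CPM in WI and 1.51 and 1.89 in the pair (edgeR adjusted p 0.0766, DESeq2 0.000837). hes7.1, a bHLH repressor, stood at 18.4 and 29.1 and 229 and 339 CPM (edgeR adjusted p 0.188, DESeq2 0.00289). vegt, a T-box gene of mesoderm and endoderm, was at 31.5 and 40.7 CPM in WI and 60.1 and 188 in the pair. The groups did not overlap for any of these 4, and t and evx1 were the lower ones. The muscle gene myod1 stood at 0.557 and 0.826 CPM in WI and 1.095 and 0.582 in the pair.

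Of 16 endoderm genes tested, from 21 in the data, 6 lay above WI (37.5%) and 1 below (6.25%). sox17a was the edgeR call, and the median log2 change was 1.22 (0.92 with genes at 0 in a group set to their bound). The copies sox17b.1 and sox17b.2 stood at 2.51 and 8.47 and 2.23 and 8.05 CPM in WI and at 40.2 and 5.96 and 16 and 7.71 in the pair, overlapping WI. foxa2, of endoderm and floor plate, stood at 2.23 and 1.45 and 5.61 and 16.9 CPM (DESeq2 adjusted p 0.0314). mixer and gata6 stood at 0.684 and 1.16 and 8.62 and 7.85 CPM in the pair and did not differ by a call. The summed level of the list was 59.4 and 82.4 CPM in WI and 176.9 and 269.9 in the pair, of which vegt, a member of this list too, made up 31.5 and 40.7 and 60.1 and 188. The part that endoderm or mesoderm cells in the caps played in any other change was not tested.

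Blood and endothelium genes had 7 members tested of 13 in the data. Of these 5 lay above WI (71.4%) and 1 below (14.3%), and cebpb was the edgeR call. lmo2, a cofactor of blood and vessel formation, had 2 counts in WI and 130 in the pair, at 13.3 and 4.80 CPM (DESeq2 adjusted p 0.0431). etv2, an early endothelial factor, was lower, at 2.79 and 3.92 CPM in WI and 0.548 and 0.436 in the pair. Of the germ plasm list, which carries maternal RNA of germ cells, 12 were tested, 4 lay above (33.3%) and 1 below (8.33%), with dnd1 the DESeq2 call at 3.34 and 6.196 and 11.4 and 21.7 CPM.

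The Wnt list did not move as a whole. Of 36 tested, 10 lay above WI (27.8%), 9 below (25%) and 17 overlapped, near the shares over all genes, and the median log2 change was 0.27. Beside sp5 and wnt1, rspo3 (R-spondin 3, a secreted enhancer of Wnt signalling) had no count in WI and 113 in the pair, at 9.17 and 6.69 CPM, at least 22.4-fold higher against a floor of 3 counts (DESeq2 adjusted p 0.00347, edgeR 0.126). wnt5b, a ligand of the non-canonical branch, stood at 95.3 and 113 CPM in WI and 19.6 and 35.5 in the pair (DESeq2 adjusted p 0.000441, edgeR 0.0766). The receptors fzd2, fzd3 and fzd10 lay below WI and fzd1 above, with no call. axin2, often read as a Wnt target, stood at 0.557 and 2.07 CPM in WI and 0.958 and 0.291 in the pair, near 0.

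Of 22 Notch genes tested, 3 lay above WI (13.6%) and 11 below (50%), with a median log2 change of -0.52. dlc was the edgeR call, and dll1 and dlc were called lower and hes7.1 higher by DESeq2. The target hes4 stood at 166 and 223 CPM in WI and 92.9 and 33.4 in the pair. Of 17 Nodal genes, 5 lay above (29.4%) and 6 below (35.3%). DESeq2 called skil (a brake on Smad signalling) and foxh1.2 lower, skil at 142 and 78.3 CPM in WI and 30.1 and 11.2 in the pair. lefty, a feedback inhibitor of Nodal, was at 1.67 and 1.03 and 2.87 and 10.8 CPM. Of 25 FGF genes, 7 lay above (28%) and 5 below (20%), and the 3 that DESeq2 called, all lower, were the cdx genes.

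The retinoic acid list had 15 members tested, 4 above WI (26.7%) and 5 below (33.3%). crabp2, which carries retinoic acid in the cell, stood at 59.4 and 39.7 CPM in WI and 266.1 and 172 in the pair (DESeq2 adjusted p 0.00473, edgeR 0.134). rdh10, which makes its precursor, stood at 134 and 207 and 52.7 and 64.3 CPM, and the receptor rara at 38.2 and 32.8 and 12.2 and 8.43. DESeq2 called the carrier higher and the last 2 lower. edgeR called none of this list, with 6 at an unadjusted p under 0.05.

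The pluripotency list had 17 members tested, 6 above WI (35.3%) and 9 below (52.9%). The 4 ventx genes are among them. Of the rest, klf17 stood at 634 and 620 CPM in WI and 156 and 73.1 in the pair and klf2 at 170 and 132 and 16.8 and 27.2, both called lower by DESeq2 alone. The 2 pou5f3 copies, frog counterparts of Oct4, went in opposite directions, pou5f3.1 at 834 and 713 and 451 and 189 CPM and pou5f3.3 at 20.1 and 60.1 and 85.6 and 178, without a call.

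Of 22 cadherins, protocadherins, Eph receptors and ephrins tested, 6 lay above WI (27.3%) and 9 below (40.9%), with pcdh8 the edgeR call. ephb3, an Eph receptor, stood at 50.2 and 51 CPM in WI and 184 and 150 in the pair (edgeR adjusted p 0.0804, DESeq2 0.000801), and pcdh10 at 0.836 and 3.098 and 13.7 and 18.5. cdh1 (E-cadherin) stood at 80.3 and 83 and 27.4 and 27.6 CPM, lower in both libraries without a call.

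Lists of general cell functions differed in how far they lay from 0. The median log2 change was -0.01 over 34 cell cycle genes and -0.03 over 21 stress and damage genes, with no edgeR call in either and 3 genes of each at an unadjusted p under 0.05. DESeq2 called 2 stress genes, both lower: xbp1, a factor of secretory cells, at 968 and 681 CPM in WI and 269 and 114 in the pair, and gadd45a at 165 and 140 and 27.1 and 25.6. Of 65 genes with ribosomal protein names, 43 lay below WI (66.2%) and none above. The median log2 change was -0.98, with no edgeR call (32 at an unadjusted p under 0.05) and 1 DESeq2 call (rpl37). The list includes rps6kl1, which is no ribosomal protein gene. Their share of all counts was 0.853% and 0.554% in WI 1 and 2 and 0.439% and 0.354% in Irx3+Otx2 1 and 2, so that WI 1 stood apart as well. Medians by library pair were -1.01, -0.43, -1.80 and -1.03. Of 61 nuclear oxidative phosphorylation genes, 37 lay below WI (60.7%) and 2 above (3.28%), with a median of -0.56. Their part in the other changes was not tested.

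**Figure D4:**
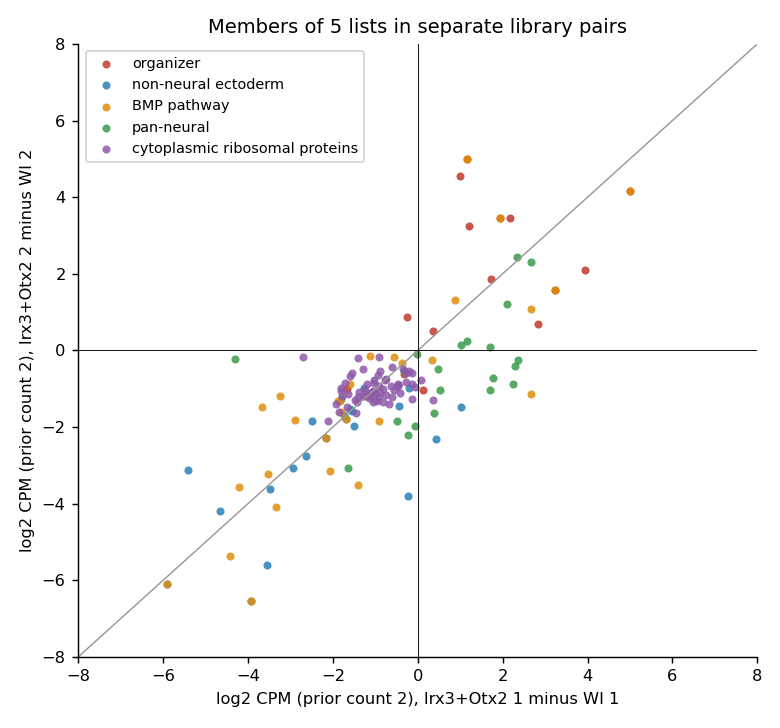
Log2 CPM difference of Irx3+Otx2 2 minus WI 2 against that of Irx3+Otx2 1 minus WI 1, which share no library, for the members of 5 lists; the grey line marks equal differences. The non-neural ectoderm and BMP members lie mostly in the lower left and the organizer members mostly in the upper right, while pan-neural members scatter across the horizontal axis, with a median of 1.02 in the first pair.

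The caps given either factor alone were set beside the pair to see where its called genes stood in them. The 18 genes were chosen by the levels of the same Irx3+Otx2 libraries, which favours genes where the pair stands apart. The values are therefore a description. Against Irx3 alone the pair differed by edgeR's test in 7 of the 18 genes, all higher in the pair (chrd, apoc1-like, dmbx1, tlx3, cebpb, sp5 and pcdh8). Over all 14176 genes tested edgeR called 7 against Irx3 alone and 0 against Otx2 alone. Against Otx2 alone edgeR called none of the 18, and 13 of them had an unadjusted p under 0.05. The 13 include irx3, whose mRNA the pair was given and Otx2 caps were not, so its difference (log2 7.71) was fixed by design. How many of all genes reached that unadjusted threshold against Otx2 alone was not counted. The interaction term, the pair's log2 change less the sum of the changes with each factor alone, had 0 edgeR calls over all genes. An unadjusted p under 0.05 was reached by 253 of the 14176 genes, a smaller share than the threshold of 0.05 itself. With 2 libraries a group, this does not show that the pair's changes equal the sum of those with each factor alone. The groups of this term also fell in unlike serial runs. DESeq2 was not run for these contrasts.

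For the 12 genes that rose, both Otx2 libraries lay above both WI libraries in 11, and in 10 they lay between WI and the pair. The share of all genes tested in which both Otx2 libraries lay above WI was not counted. These counts therefore have no base to be set against. Both Otx2 libraries fell in the third serial run, which held no WI or Irx3 library. Here and for the genes that fell, Otx2 caps therefore cannot be compared with WI or Irx3 caps within a run. chrd stood at 10.4 and 10.3 CPM in Otx2 caps and 3.42 and 2.12 in Irx3 caps, against 73.8 and 53.9 in the pair. dmbx1 stood at 10.1 and 4.43 CPM in Otx2 caps and 0 and 0.177 in Irx3 caps, against 246 and 75.3. apoc1-like stood at 70.8 and 46.1 CPM in Otx2 caps and 3.28 and 9.18 in Irx3 caps, against 139 and 136. Among these groups and WI the pair held the highest levels in all 3, Otx2 caps came between, and Irx3 caps overlapped WI or lay below it. The given mRNAs were not at like levels in these caps. otx2 stood at 606 and 419 CPM in Otx2 caps, against 829 and 1548 in the pair. irx3 stood at 1862 and 200 CPM in Irx3 caps, against 1618 and 1363. The part of these unlike levels in the differences was not tested. Caps given Foxb1 and Eomes mRNA together held chrd at 47.0 and 71.5 CPM, apoc1-like at 98.0 and 43.2 and sox17a at 70.1 and 61.6. dmbx1 was low in them, at 2.38 and 1.21 CPM. Caps given Lhx8 mRNA held chrd at 10.7 and 14.7 CPM, apoc1-like at 36.1 and 49.5 and dmbx1 at 0.282 and 1.09. They held sp5 at 11.3 and 6.57 CPM, against 5.13 and 2.03 in Otx2 caps. Levels of chrd, apoc1-like and sp5 above WI were thus not particular to caps given Otx2. For chrd, dmbx1 and apoc1-like, the log2 changes of the pair over Otx2 alone were 2.62 (edgeR adjusted p 0.203), 4.48 (0.203) and 1.24 (1), and so did not pass. In 8 of the 12, both libraries of the pair were the highest of all 16, which choosing these genes by the pair's own levels favours.

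For the 6 genes that fell, both Otx2 libraries lay below both WI libraries in 6 and both Irx3 libraries in 4. How many of all genes tested lay below WI in Otx2 or in Irx3 caps was not counted, so these counts too lack a base. foxi4.2 stood at 209 and 120 CPM in Otx2 caps and 754 and 531 in Irx3 caps, against 160 and 138 in the pair. dlc stood at 3.76 and 9.09 CPM in Otx2 caps and 25.8 and 62.7 in Irx3 caps, against 4.52 and 5.82. The Otx2 libraries overlapped the pair for both genes, with log2 changes of the pair over Otx2 alone of -0.14 and -0.33. Caps given Eomes mRNA alone, also in the third serial run, lay below both WI libraries too in each of the 6 genes. They stood at 165 and 130 CPM for foxi4.2, 11.7 and 11.5 for Xetrov90029361m and 11.5 and 29.2 for dlc. The falls were thus not particular to caps given Irx3 or Otx2. gata2, called by DESeq2 alone, stood at 8.04 and 2.03 CPM in Otx2 caps. The Irx3 libraries disagreed for it, at 204 and 906 CPM, and also for szl (22.4 and 245), msx1 (8.88 and 81.6) and dlx5 (70.4 and 221); in each, Irx3 1 was the lower. irx3 itself stood at 1862 and 200 CPM in Irx3 1 and 2.

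For a few genes Irx3 1, though not Irx3 2, stood above both Otx2 libraries, a description without a test. nkx6-2 stood at 21.2 and 2.12 CPM in Irx3 caps and 2.57 and 4.67 in Otx2 caps, against 137 and 23.8 in the pair. Its levels in the pair were not particular to it, as Foxb1+Eomes caps held 134 and 24.0 CPM. otx1 stood at 90.2 and 11.3 and 13.3 and 22 CPM, against 192 and 89.1, and hes7.1 at 175 and 16.4 and 67.9 and 61, against 229 and 339. In all 3 Irx3 1 was well above Irx3 2. These 3 were picked after their values were seen. For crabp2, called higher in the pair by DESeq2 alone, both Irx3 libraries stood above both Otx2 and both WI libraries. It was at 116 and 137 CPM in Irx3 caps, 32.2 and 33.5 in Otx2 caps and 59.4 and 39.7 in WI. Foxb1+Eomes caps held 100.9 and 255.7 CPM, so levels above WI were not particular to caps given Irx3. crabp2 too was picked after its values were seen.

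**Figure D5:**
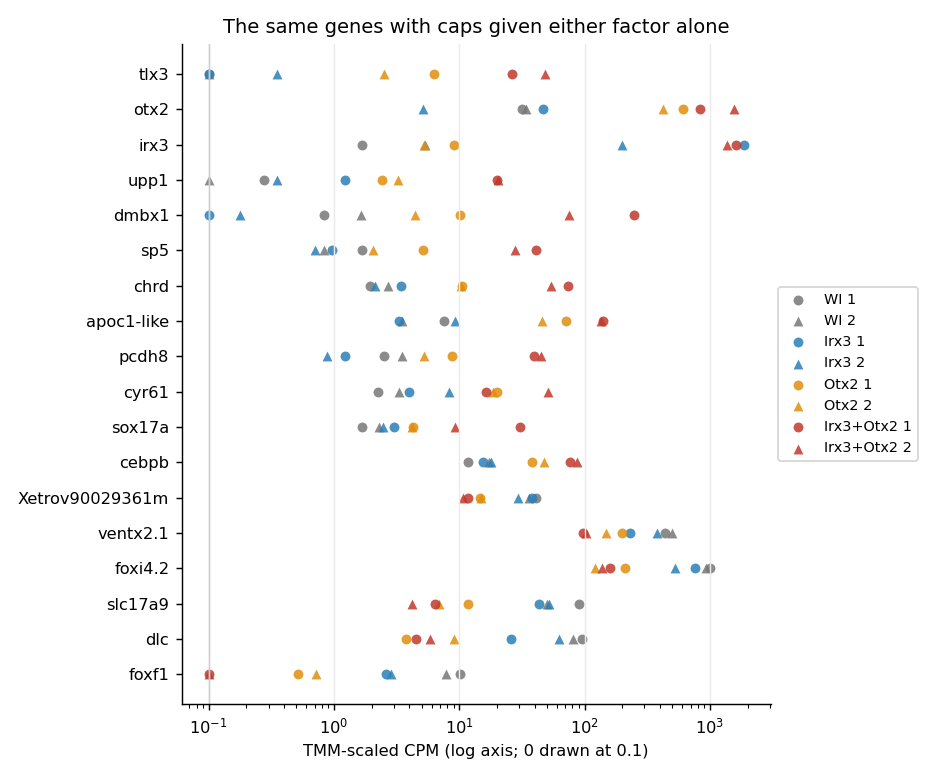
TMM-scaled CPM on a log axis of 17 of the 18 called genes and otx2 in WI (grey), Irx3 (blue), Otx2 (orange) and Irx3+Otx2 (red) libraries, 2 each, with circles for replicate 1 and triangles for replicate 2; 0 is drawn at 0.1. For chrd the Otx2 points (10.4 and 10.3) lie between WI (1.95 and 2.68) and the pair (73.8 and 53.9), and for dlc they (3.76 and 9.09) overlap the pair (4.52 and 5.82).

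Single cells of stage 10.5 explants, in libraries AC 1 and 2 and BL 1 and 2 of 25 cells each, were read for the same genes. The series text names explants of the animal cap and of the dorsal marginal zone, where the organizer forms, and the labels do not spell out BL. Reads were summed over the cells of each library, and 9750 genes with at least 20 reads in all were compared by level: 12.6% of them lay higher in both BL sums than in both AC sums and 23.5% lower. Of the 12 genes that rose, 7 had 20 reads, and 5 of these lay higher in BL (chrd, apoc1-like, sox17a and irx3 among them) and 1 lower (cyr61). The 5 include irx3, whose mRNA the pair was given, so that its rise in the caps was fixed by design. Of the 6 that fell, 4 had 20 reads; foxi4.2 lay lower in BL and dlc higher. There is no test here, as each group is 2 libraries.

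chrd was at 2 and 0 CPM in the AC sums and 317 and 975 in the BL sums. apoc1-like was at 0 in both AC sums and at 137 and 1485 CPM in BL. sox17a was at 0.666 and 7.12 CPM in AC and 154 and 311 in BL. foxi4.2 was at 325 and 139 CPM in AC and 58.2 and 35.7 in BL. The 3 genes that the pair raised in caps were thus nearly or wholly unread in AC cells and present in BL cells, and foxi4.2 was higher in both AC sums than in both BL sums. The organizer genes nog, fst and lhx1 were at 57.8 and 116, 61.8 and 143 and 81.4 and 678 CPM in BL and at 0 and 0, 0 and 0 and 0.333 and 9.79 in AC. The brain genes dmbx1 and tlx3 were at 0 and 10.6 and 0.889 and 6.62 CPM in BL and at 0 in AC, under the 20 reads needed. six3, sp5, pcdh8 and upp1 had no read in any of the 4 sums.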

How the data were processed

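Total RNA of stage 10.5 animal caps was depleted of ribosomal RNA and read from both fragment ends on an Illumina NextSeq, per the labels' protocols. The authors deposited estimated counts and TPM per target, per the file headers; the submitters' processing notes name STAR 2.5.0, and the tool behind these columns, the genome build and any use of strand are not given in the sources used here, so reads of overlapping or antisense genes cannot be told apart and no coordinates are given. Single-cell read counts per gene were deposited by the authors without normalization.

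Estimated counts were rounded. All 16 bulk libraries entered 1 fit in edgeR 4.0.16 (R 4.3.3; filterByExpr, TMM, robust quasi-likelihood test, 8 residual degrees of freedom), the group being the only term; 14176 of 26550 targets were tested, with Benjamini-Hochberg adjustment over all of them. DESeq2 1.42.0 was an alternative. On simulated data (13832 genes) the fit called 48 of 100 genes changed by a log2 size of 2, 87 of 100 of size 4, and 1 unchanged gene. The changed genes were drawn from those with a mean above 4 CPM, and no difference between serial runs was simulated. These rates therefore do not cover genes of lower mean or effects of the runs. List medians include all tested members and leave out irx3 and otx2. Of the 18 calls, 17 were matched to a symbol in the RefSeq table of assembly UCB_Xtro_10.0 by symbol, gene ID or synonym, after any -like suffix was dropped. Named genes were irx3 and otx2, every gene called, the 5 highest and 5 lowest called by DESeq2 alone (mean log2 CPM of at least 2, groups not overlapping), up to 4 members per list with the largest change, and defining list members; some are not reported here. The comparison, the lists and these rules were chosen with earlier results of these data known. Intervals and floors cover counting error only.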

Additional observations from a re-analysis of the deposited data

How the results depend on the processing

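The count of 18 calls in Irx3+Otx2 against WI was 853 without a filter on low counts, 275 with DESeq2, 30 with only the 4 libraries compared (10 of the 18 among them), 7 with the serial runs as a term, 1 at an adjusted p under 0.01 and 52 under 0.1. Leaving out 1 library gave 0 to 7. It was 18 with DESeq2 size factors or unrounded counts, 19 with upper quartile scaling and 25 with a stricter filter. The cause of these differences was not tested. With the replicate number as a block it was 21, 17 of them among the 18. The numbers were not shown to pair the libraries, as deviations of WI and Irx3+Otx2 correlated at 0.193 and those of all 28 pairs of groups at −0.244 to 0.725. All 18 kept their direction in every fit that tested them; foxf1 was not tested under the stricter filter. The log2 changes of egr2 and fos, 1.02 and 1.70 and not called, turned to −0.92 and −0.71 with serial runs as a term and ranged from −0.75 to 1.79 and from −1.22 to 2.61 when 1 library was left out, the negative ends being those without Irx3+Otx2 2. Leaving out a library moved the list medians to 1.69 to 3.25 for organizer, -2.39 to -1.64 for non-neural ectoderm, -1.71 to -1.43 for BMP and -0.40 to 0.93 for pan-neural genes. With 2 libraries a group and totals from 4058814 counts, genes under a few CPM rest on few reads.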
